A study of Mus musculus with 59 samples.

Results

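The H19 and Igf2 domain on mouse chromosome 7 was described by its CTCF and SMARCA5 binding sites, found by chromatin immunoprecipitation and sequencing (ChIP-seq) during reprogramming of fibroblasts and in embryonic stem cells (ESCs). Its members were H19 (chr7:142575530-142578146), Igf2 (chr7:142650768-142666816) and Ins2 (chr7:142678656-142679726) in the mm10 genome build. Every peak that overlapped these 3 gene spans widened by 50 kb was taken, which gave a stretch of 204 kb (chr7:142525530-142729726), and overlapping peaks were joined into 1 site. The domain held 13 sites of 105010 in all 16 peak lists, and 163 of 798096 peaks. The imprinting control region was taken as the stretch 2 to 4 kb upstream of the start of H19, and 2 of the 13 sites lay there, while the other 11 lay elsewhere in the domain.

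H19 makes a long non-coding RNA, Igf2 a fetal growth factor and Ins2 an insulin. In the mouse, H19 is expressed from the maternal chromosome and Igf2 from the paternal one. CTCF, a DNA-binding protein with many zinc fingers that holds chromatin loops in place, is known to bind the unmethylated maternal imprinting control region and to keep Igf2 from enhancers that lie beyond H19, while methylation of the paternal copy prevents this binding. Peak lists do not tell the parental chromosomes apart, so each peak below is the sum of both.

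Cells were mouse embryonic fibroblasts of the OG2 strain, which carry a green fluorescent reporter of Oct4, reprogrammed with OSKM (Oct4, Sox2, Klf4 and c-Myc) from retroviruses or from a doxycycline-inducible lentivirus. Thy1 marks fibroblasts, SSEA1 appears on cells on the way to pluripotency, and the reporter marks cells that have switched on Oct4. In 5 populations, cells given an shRNA against Ctcf (shCtcf) were set against cells given an shRNA against luciferase (shLuc): day 0 cells with 2 samples per group, sorted Thy1+, SSEA1- Thy1- and SSEA1+ cells with 2 samples per group, and day 12 Oct4-GFP+ cells with 3 samples per group. Thy1+ cells were collected on day 3 and on day 9, and the other sorted cells on day 6 and on day 9. At day 10, cells with OSKM, a Ctcf retrovirus and an shRNA against Smarca5 (1 sample) were set against cells with OSKM and Ctcf (2 samples), and these against cells with OSKM alone (2 samples). In ESCs of the E14Tg2a line, Smarca5 knockout cells (1 sample), edited with a Cas9 nickase, were set against wild-type cells (1 sample), all cultured with inhibitors of MEK and GSK3. SMARCA5, a nucleosome-sliding ATPase of the ISWI family, was mapped in E14 cells (2 samples) through an overexpressed Flag- and biotin-tagged protein in picked clones, so its peaks are those of the tagged protein. Each of the 16 groups had 1 list with 23600 to 89567 peaks, whatever its number of samples, so differences between lists could not be checked against replicates. Every peak was 400 bp wide with a score of 0, so a peak is either listed or not, and weaker binding cannot be told apart from binding in fewer cells. How deeply each library was sequenced is not known here, and the level of CTCF or SMARCA5 left after knockdown could not be checked from peak positions.

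The 300-base promoter windows on or beside domain sites were read from RefSeq (build GRCm38.p6), each from 250 bases before to 50 bases after a start. The 3 windows that overlap a domain site are shown (2 of Gm33148 and 1 of Mrpl23), because a listed peak sits on them, with the Igf2 window nearest to the peak inside Igf2. Capitals mark GGNGGCAG or GGNGGCGC, 2 forms of the core letters of the CTCF motif, searched on both strands. The form ending in GC was added after the windows had been seen.

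Gm33148 first window, chr7:142610569-142610868, plus strand: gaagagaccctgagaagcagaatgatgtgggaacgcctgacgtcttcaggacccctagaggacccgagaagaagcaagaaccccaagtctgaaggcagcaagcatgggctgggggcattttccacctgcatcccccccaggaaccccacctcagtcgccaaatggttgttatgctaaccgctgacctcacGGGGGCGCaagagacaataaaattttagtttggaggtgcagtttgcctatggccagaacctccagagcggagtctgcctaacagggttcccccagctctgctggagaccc
Gm33148 second window, chr7:142610909-142611208, plus strand: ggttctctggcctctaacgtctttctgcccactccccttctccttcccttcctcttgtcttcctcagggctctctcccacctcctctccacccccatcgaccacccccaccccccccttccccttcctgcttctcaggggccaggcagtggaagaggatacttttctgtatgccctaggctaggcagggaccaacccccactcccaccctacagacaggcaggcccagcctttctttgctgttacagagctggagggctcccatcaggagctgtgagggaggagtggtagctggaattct
Igf2, chr7:142658755-142659054, minus strand: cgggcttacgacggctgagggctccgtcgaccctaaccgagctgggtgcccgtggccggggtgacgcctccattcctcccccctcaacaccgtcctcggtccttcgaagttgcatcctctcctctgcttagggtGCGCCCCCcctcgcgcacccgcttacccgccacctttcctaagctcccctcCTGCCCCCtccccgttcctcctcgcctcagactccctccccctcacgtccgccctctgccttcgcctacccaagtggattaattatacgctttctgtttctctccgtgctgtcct
Mrpl23, chr7:142532782-142533081, plus strand: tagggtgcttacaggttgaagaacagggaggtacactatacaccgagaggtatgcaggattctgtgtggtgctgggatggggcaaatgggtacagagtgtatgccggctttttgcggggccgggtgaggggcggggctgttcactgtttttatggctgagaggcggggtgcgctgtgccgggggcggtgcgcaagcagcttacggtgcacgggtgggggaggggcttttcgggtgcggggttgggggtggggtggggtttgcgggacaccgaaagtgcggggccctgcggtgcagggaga

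The first Gm33148 window lay wholly within a site of the domain. Its match to GGNGGCGC, at position 191 from the 5′ end of the printed strand, was 2 bp from the centre of that site. The second Gm33148 window overlapped the same site by 84 bp and held neither form. The Igf2 window ended 113 bp short of the site inside Igf2 and held both forms on the strand opposite to the printed one, GGNGGCGC at position 135 and GGNGGCAG at position 186. The Mrpl23 window overlapped its site by 171 bp and held neither form. Among all 32851 promoter windows of the table, 12.6% held GGNGGCAG and 11.3% held GGNGGCGC. Among the 2751 windows with at least 200 bp inside a CTCF peak of wild-type ESCs, the shares were 21.0% and 37.0%. A match describes these letters and does not show binding.

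Numbered along the chromosome, the 13 sites lay in 4 stretches, with the H19 side first. Sites 1 to 4 lay 45.0, 40.1, 25.5 and 22.3 kb from the start of H19 on the side away from Igf2. Sites 1 and 2 were in Mrpl23, a mitochondrial ribosomal protein gene, and sites 3 and 4 were in Nctc1, a long non-coding RNA gene. Sites 5 and 6 were the imprinting control region, and site 7 lay 32.6 kb from the start of H19 towards Igf2, in the non-coding gene Gm33148. Site 8 was inside Igf2 at 81.2 kb, sites 9 and 10 lay between Igf2 and Ins2 at 94.2 and 97.7 kb, and sites 11 to 13 lay past Ins2 at 136.7, 142.8 and 148.1 kb, in the non-coding gene Gm39116. The longest stretch without a site, 48.2 kb, lay between site 7 and the site inside Igf2, and the next, 38.6 kb, between site 10 and site 11.

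**Figure D1:**
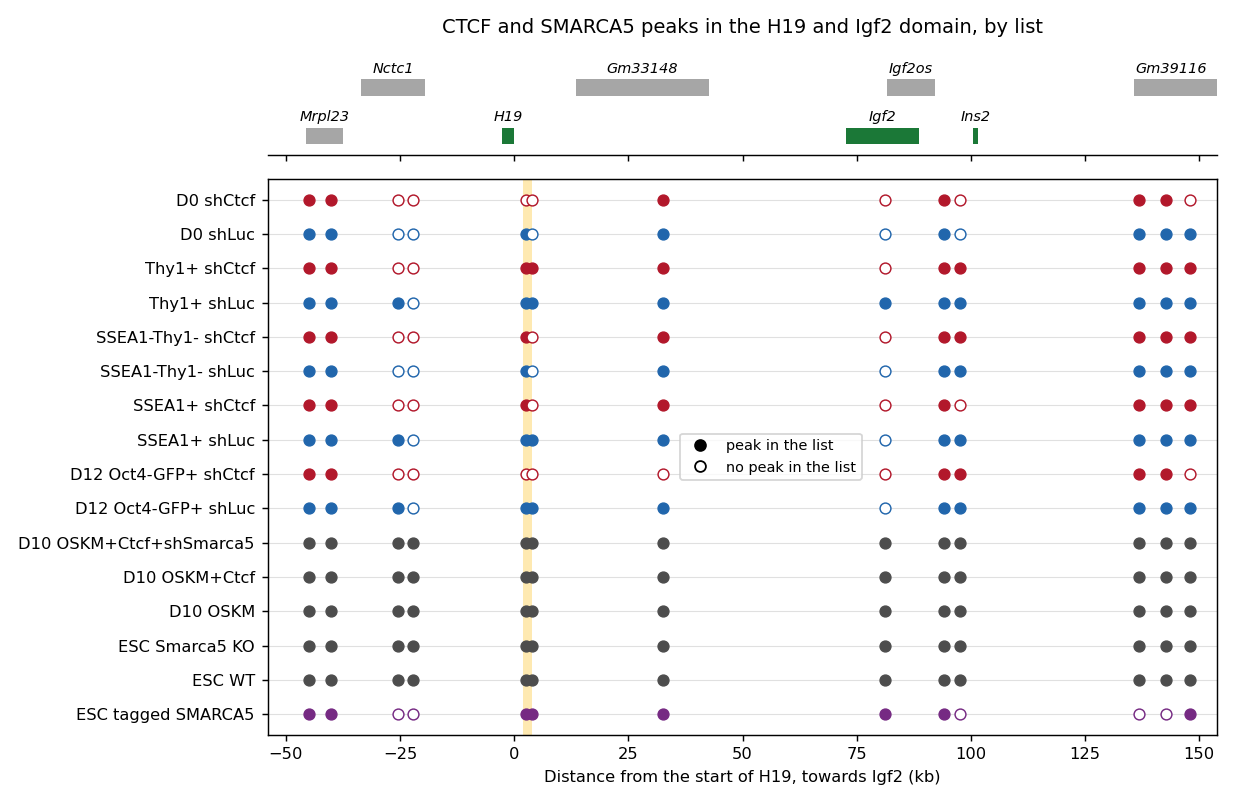
Peaks of each list at the 13 sites (rows, lists; horizontal axis, distance from the start of H19 in kb, positive towards Igf2), with gene spans above (green, the 3 members). Filled circles are listed peaks, open circles are sites with no peak in that list, red is shCtcf, blue shLuc, grey the other CTCF lists and purple SMARCA5, and the yellow band is the imprinting control region; sites 1, 2 and 9 are filled in all 16 rows.

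No listed peak overlapped the span of H19 or of Ins2, and site 8 was the only one of the 13 that overlapped Igf2. H19 had its nearest peaks at the imprinting control region, 2347 and 3583 bp beyond its start. Within 10 kb of H19, lists held 0 to 2 peaks, within 10 kb of Igf2 1 to 3, and within 10 kb of Ins2 1 or 2. Counts near the 3 genes are not independent, because sites 9 and 10 lie within 10 kb of Igf2 and of Ins2.

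The imprinting control region was occupied by CTCF in 13 of the 15 CTCF lists. The proximal site (site 5, chr7:142580493-142580955) lay 2.6 kb from the start of H19 and was held by 13 CTCF lists. The distal site (site 6, chr7:142581729-142582166) lay 3.8 kb from that start and was held by 9 CTCF lists. Every list with the distal peak also had the proximal one.

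With Ctcf shRNA, day 0 cells had 0 peaks at the imprinting control region and Thy1+ cells had 2. SSEA1- Thy1- and SSEA1+ cells with Ctcf shRNA had 1 each, the proximal one, and day 12 Oct4-GFP+ cells had 0. With luciferase shRNA, day 0 cells had 1 peak, Thy1+ cells 2, SSEA1- Thy1- cells 1, SSEA1+ cells 2 and day 12 Oct4-GFP+ cells 2. The region thus had fewer peaks with Ctcf shRNA in day 0, SSEA1+ and day 12 cells and equal numbers in Thy1+ and SSEA1- Thy1- cells. The 3 day 10 lists, both ESC CTCF lists and the SMARCA5 list each held both peaks.

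Over the 5 pairs, 4 of the 8 control peaks at the imprinting control region were kept with Ctcf shRNA (50.0%), and 35 of the 43 control peaks at the other domain sites (81.4%). Over all peaks of the 5 control lists, 179378 of 237549 were kept (75.5%). The same 2 sites enter up to 5 times, so the 8 peaks are not independent and this difference has no test.

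**Figure D2:**
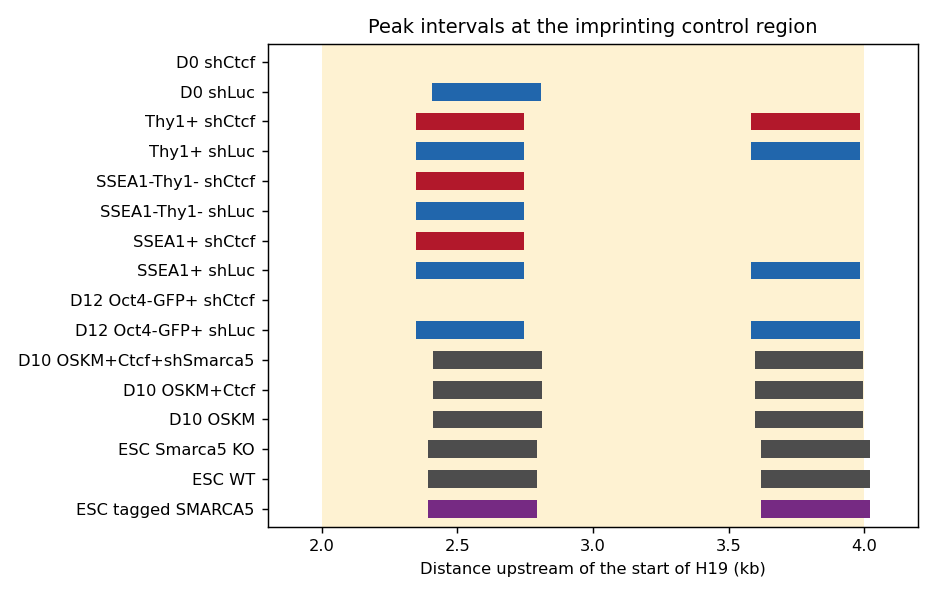
Peak intervals of 400 bp at the imprinting control region (rows, lists; horizontal axis, distance upstream of the start of H19 in kb; band, 2 to 4 kb). The shCtcf rows of day 0 and day 12 Oct4-GFP+ cells are empty, and the positions shift slightly between sets of lists that share coordinates.

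The proximal peak started at 142580493 in the sorted-cell lists, at 142580539 in the ESC lists, at 142580553 in the day 0 control list and at 142580556 in the day 10 lists. From the start of the proximal peak to that of the distal one the distance was 1236 bp in sorted cells, 1187 bp at day 10 and 1228 bp in ESCs. These shifts of at most 63 bp follow the sets of lists that share coordinates and not the treatments. A second peak start within 1.5 kb, as at this region, was found for 7.46% of all CTCF peaks of wild-type ESCs, 7.08% of those of day 12 control cells and 3.41% of those of day 0 control cells.

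On the H19 side of the domain, the 2 sites in Mrpl23 were held by all 16 lists. Site 1 (chr7:142532911-142533406) overlaps an annotated start of Mrpl23 and site 2 (chr7:142537874-142538309) lies in its body. The sites in Nctc1 were held less often. Site 3 (chr7:142552479-142552895) was held by 8 CTCF lists, namely the Thy1+, SSEA1+ and day 12 control lists, the 3 day 10 lists and the 2 ESC lists, and by none of the 5 shCtcf lists. Site 4 (chr7:142555669-142556103) was held by the 3 day 10 and the 2 ESC CTCF lists and by none of the 10 lists of the knockdown series.

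Between H19 and Igf2, site 7 (chr7:142610539-142610992) in Gm33148 was held by 15 lists. The list without it was that of day 12 Oct4-GFP+ cells with Ctcf shRNA. Its centre is the place of the GGNGGCGC match in the first sequence above.

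Igf2 had its own site within the gene, site 8 (chr7:142659168-142659608), 72 bp from the antisense gene Igf2os. It was held by 7 lists: Thy1+ control cells, the 3 day 10 lists, both ESC CTCF lists and SMARCA5. Among the 10 lists of the knockdown series, the Thy1+ control list was the one that held it, and with Ctcf shRNA it was listed in 0 of 5 populations.

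Between Igf2 and Ins2, site 9 (chr7:142672086-142672535) was held by all 16 lists, 5270 bp from Igf2 and 6121 bp from Ins2. Site 10 (chr7:142675654-142676082), the nearest to Ins2 at 2574 bp, was held by 12 lists. It was missing from both day 0 lists, from SSEA1+ cells with Ctcf shRNA and from SMARCA5. Within 10 kb of Ins2, SSEA1+ cells therefore had 1 peak with Ctcf shRNA, against 2 with luciferase shRNA, and the other 4 populations had equal numbers with either shRNA.

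Past Ins2, in Gm39116, sites 11 (chr7:142714642-142715075) and 12 (chr7:142720673-142721128) were held by all 15 CTCF lists and not by SMARCA5. Site 13 (chr7:142725994-142726430) was held by 14 lists, and the 2 without it were day 0 and day 12 cells with Ctcf shRNA. The proximal imprinting control site was missing from the same 2 lists and from no other. Over all sites held by CTCF lists, 1500 of 102399 (1.46%) had this pattern over the 15 lists. Many of those sites were not in every luciferase shRNA list, whereas both of these domain sites were. Among the 26121 sites held by every luciferase shRNA list, 1790 (6.85%) were missing with Ctcf shRNA in day 0 and day 12 cells alone. That selection was made after the data had been seen.

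Ctcf shRNA was compared with luciferase shRNA in 5 populations, to see which CTCF sites are lost when CTCF is reduced. Domain peaks numbered 6 with Ctcf shRNA and 8 with luciferase shRNA at day 0, where sites 5 and 13 were missing. Of the control peaks 2 of 8 were absent (25.0%), against 26.7% of all control peaks. In Thy1+ cells there were 10 with Ctcf shRNA and 12 with luciferase shRNA, and sites 3 and 8 were missing. Here 16.7% of the domain's control peaks were absent, against 18.9% over the list. For the day 3 Thy1+ samples, other labels contradict the titles on which received Ctcf shRNA, and the titles were followed.

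SSEA1- Thy1- cells had the same 9 domain peaks with either shRNA, so 0 of 9 were absent (kept share 100%, Wilson 95% interval 70.1% to 100%), against 18.0% of all control peaks. SSEA1+ cells had 8 with Ctcf shRNA and 11 with luciferase shRNA, with sites 3, 6 and 10 missing, which was 27.3% of control peaks against 18.0% over the list. Day 12 Oct4-GFP+ cells had 6 with Ctcf shRNA and 11 with luciferase shRNA, with sites 3, 5, 6, 7 and 13 missing. That was 45.5% of the control peaks of the domain, against 41.4% over the list.

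The kept share of the domain was 75.0% at day 0 (Wilson 95% interval 40.9% to 92.9%), 83.3% in Thy1+ cells (55.2% to 95.3%), 72.7% in SSEA1+ cells (43.4% to 90.3%) and 54.5% at day 12 (28.0% to 78.7%). Each of these intervals, which cover counting error only, holds the share of the whole list, so no difference between domain and list was detectable with 8 to 12 peaks. Ctcf shRNA added 0 peaks in the domain in the 5 populations. Over whole lists, peaks absent from the control list made up 10.4% of the day 0 shCtcf list, 5.50% of the Thy1+ one, 5.73% of the SSEA1- Thy1- one, 4.51% of the SSEA1+ one and 13.4% of the day 12 one.

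**Figure D3:**
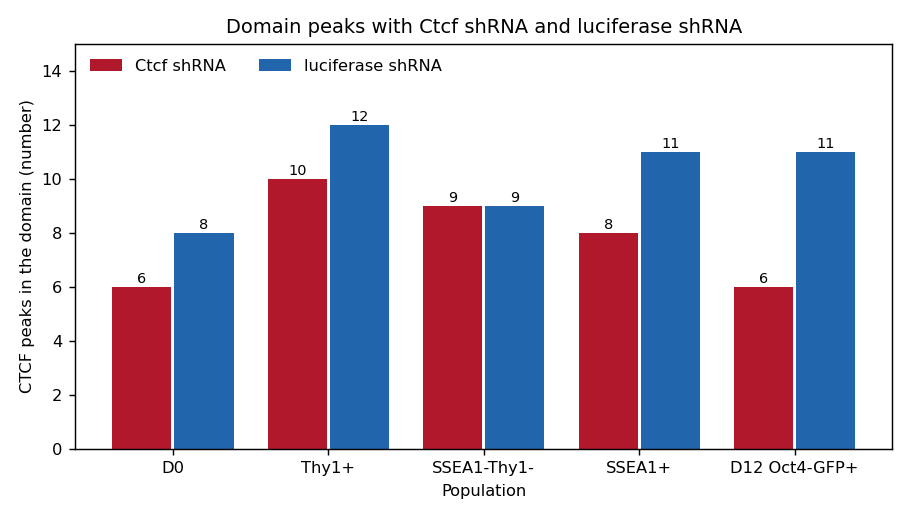
Number of CTCF peaks in the domain (vertical axis) in the 5 populations, with Ctcf shRNA (red) and luciferase shRNA (blue), 1 list per bar and no error bar. Bars are equal in SSEA1- Thy1- cells (9 each) and differ most in day 12 Oct4-GFP+ cells (6 with Ctcf shRNA, 11 with luciferase shRNA).

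The number of domain peaks was lower with Ctcf shRNA in 4 of the 5 populations and equal in the other one, with a mean difference of -2.40 ± 1.82 peaks (SD, n = 5 pairs of lists). Over the 5 pairs, a two-sided exact permutation test that flips signs gave p = 0.125. That is the smallest p these pairs allow, because flipping the equal pair changes nothing. With no equal pair the smallest p of this test would be 0.0625, so the design could not reach 0.05. The lists as a whole were also shorter with Ctcf shRNA. In day 12 cells the number of peaks fell by 45.5% in the domain and by 32.5% in the list, and at day 0 it fell by 25.0% in the domain and by 18.2% in the list. The domain and the list fell by 16.7% and 14.2% in Thy1+ cells and by 27.3% and 14.2% in SSEA1+ cells, and in SSEA1- Thy1- cells the domain changed by 0% while the list fell by 13.0%.

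Of the 13 sites, 8 were held by all 5 control lists, as were 26121 sites of the genome. With Ctcf shRNA, 2 of these 8 were missing at day 0 and 3 at day 12, and 0 were missing in Thy1+, SSEA1- Thy1- and SSEA1+ cells. Over the 26121 sites the shares missing were 21.8% at day 0 and 21.6% at day 12, and 0.980%, 1.44% and 1.62% in Thy1+, SSEA1- Thy1- and SSEA1+ cells. Such missing sites, in the domain and over the genome, were thus found mainly in day 0 and day 12 cells, whose shCtcf lists are also the shortest of the 5. The selection itself can widen this contrast, since the day 0 control list is the shortest control list, with 28838 peaks. Without the selection, 26.7% of control peaks were absent at day 0 and 41.4% at day 12. The shares in Thy1+, SSEA1- Thy1- and SSEA1+ cells were then 18.9%, 18.0% and 18.0%. Of the 8 domain sites 5 (sites 1, 2, 9, 11 and 12) were in every shCtcf list, as were 64.4% of the 26121. This selection was added after the data had been seen.

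The control lists alone follow the domain through reprogramming. Day 0 cells had 8 domain peaks, Thy1+ cells 12, SSEA1- Thy1- cells 9, SSEA1+ cells 11 and day 12 Oct4-GFP+ cells 11. At the imprinting control region the proximal peak was listed in all 5, and the distal peak in Thy1+, SSEA1+ and day 12 cells but not in day 0 or SSEA1- Thy1- cells.

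Thy1+ control cells kept all 8 domain peaks of day 0 control cells (3.39% of all day 0 peaks were absent) and had 4 more, at sites 3, 6, 8 and 10. These 4 were 33.3% of the Thy1+ domain peaks, against 47.0% over the Thy1+ list, which is the longer of the 2 with 52800 peaks, against 28838 at day 0. SSEA1- Thy1- control cells lacked sites 3, 6 and 8, which was 25.0% of the Thy1+ domain peaks against 16.4% over the list, and added none (13.2% of their own list was absent from Thy1+ cells). SSEA1+ control cells kept the 9 domain peaks of SSEA1- Thy1- cells (8.84% of that list was absent). They also held sites 3 and 6, which was 18.2% of their domain peaks against 10.7% over the list. Day 12 Oct4-GFP+ and SSEA1+ control cells had the same 11 domain peaks, while over the lists 15.4% of SSEA1+ peaks were absent at day 12 and 17.1% of day 12 peaks were absent from SSEA1+ cells.

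Site 3 in Nctc1 and the distal imprinting control site (site 6) went together in the control lists, being listed in Thy1+, SSEA1+ and day 12 cells and not in day 0 or SSEA1- Thy1- cells. Over the genome, 954 of 102399 sites (0.932%) had this pattern. With Ctcf shRNA they parted, since site 6 was listed in Thy1+ cells and site 3 in no population.

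Day 12 Oct4-GFP+ control cells were set against wild-type ESCs, to see how far the reprogrammed cells resembled pluripotent cells. They held 11 of the 13 domain peaks of wild-type ESCs (84.6%, Wilson 95% interval 57.8% to 95.7%), lacking site 4 in Nctc1 and site 8 inside Igf2. Over the whole list 40.4% of the wild-type ESC peaks were absent, against 15.4% in the domain, and the interval just includes the whole-list share. The day 12 list is the shorter, with 53043 peaks against 83173 in ESCs, so many ESC peaks had to be absent from it. All 11 domain peaks of day 12 cells were also in ESCs, while 6.18% of all day 12 peaks were not.

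The 3 day 10 lists each held all 13 domain sites. With OSKM and Ctcf 13 of 13 peaks of OSKM cells were kept (Wilson 95% interval 77.2% to 100%; 0.330% absent over the list) and 0 were added, although 17.3% of all peaks with added Ctcf were absent from the OSKM list. With the shRNA against Smarca5, 13 of 13 peaks of OSKM and Ctcf cells were kept (1.72% absent over the list) and 0 were added (0.542% over the list). All 13 sites of the domain were already listed with OSKM alone, so a gain could have been seen only at a place that no list holds.

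Smarca5 knockout ESCs and wild-type ESCs had the same 13 domain peaks. Their positions were identical, but the ESC lists share start positions, so this identity says nothing about the knockout. Over the lists, 2.88% of wild-type peaks were absent from the knockout and 9.81% of knockout peaks were absent from the wild type. Both imprinting control peaks were listed with and without Smarca5.

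Tagged SMARCA5 was set against CTCF of wild-type ESCs, to see where the remodeller and CTCF meet. SMARCA5 had 8 peaks in the domain, all at CTCF sites, while 13.9% of all SMARCA5 peaks had no CTCF peak of wild-type ESCs. All 8 started at the same base as the CTCF peak, because the ESC lists share start positions, which can raise this overlap. Of the 13 CTCF peaks of wild-type ESCs, 8 held SMARCA5 (61.5%, Wilson 95% interval 35.5% to 82.3%), against 48.6% of the whole list. The 5 without SMARCA5 were the Nctc1 sites 3 and 4, site 10 beside Ins2 and sites 11 and 12 in Gm39116, and 51.4% of all CTCF peaks were without it. The sites with SMARCA5 were the Mrpl23 pair, both imprinting control sites, site 7 in Gm33148, site 8 inside Igf2, site 9 and site 13. All 8 were among the 13 CTCF peaks still listed in Smarca5 knockout cells.

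**Figure D4:**
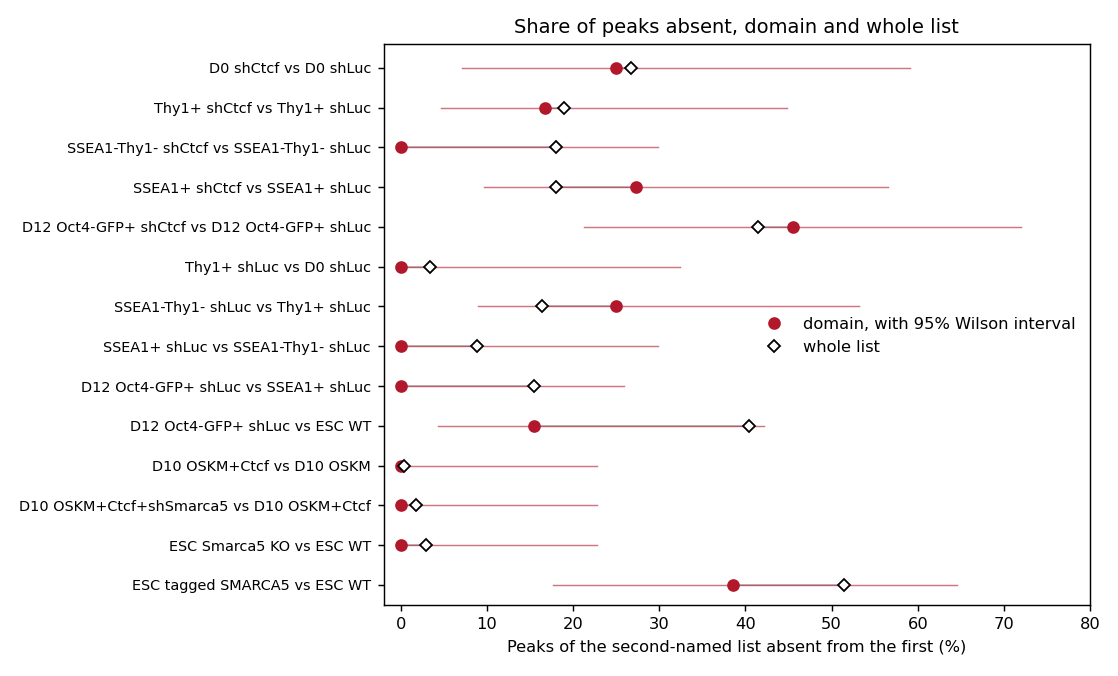
Share of peaks of the second-named list that are absent from the first-named list (horizontal axis, %), for the domain (red, with its Wilson 95% interval) and for the whole list (diamonds), in 14 comparisons. The widest gap is between day 12 control cells and wild-type ESCs (15.4% in the domain, 40.4% over the list), where the day 12 list is much the shorter.

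Peaks were denser in the domain than along the chromosomes in each of the 16 lists, by 1.89 to 3.90 times. The range depended on the widening and was 1.57 to 4.28 times with 10 kb, lowest in day 0 cells with Ctcf shRNA (1.40 peaks per 100 kb of the narrower stretch, against 0.888 along the chromosomes), and 1.85 to 4.24 times with 100 kb. The day 10 lists and both ESC CTCF lists had 6.37 peaks per 100 kb of the domain. Along the chromosomes, from the first to the last peak of each, the same lists had 1.94 (OSKM, Ctcf and Smarca5 shRNA), 1.97 (OSKM and Ctcf), 1.63 (OSKM), 3.37 (knockout ESCs) and 3.13 (wild-type ESCs) per 100 kb. The ratio of domain to whole list was 3.90 with OSKM and 2.03 in wild-type ESCs. Day 12 cells had 2.94 per 100 kb of the domain with Ctcf shRNA and 5.39 with luciferase shRNA, against 1.35 and 2.00 along the chromosomes. SMARCA5 had 3.92 per 100 kb of the domain and 1.77 along the chromosomes.

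Lists of unlike length from different sets could hold the same number of domain peaks. The OSKM list held 13 domain peaks among 43356, and the wild-type ESC list 13 among 83173. The SSEA1- Thy1- control list held 9 among 50890. Within the knockdown series longer lists tended to hold more, from 6 among 23600 (day 0 cells with Ctcf shRNA) to 12 among 52800 (Thy1+ control cells). Whether list length sets these numbers was not tested.

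Domain sites recurred in more lists than sites of the genome. Of the 13, 5 were in all 15 CTCF lists (38.5%), against 16544 of 102399 sites (16.2%). The median domain site was in 13 CTCF lists and the median of all sites in 6. None of the 13 was in fewer than 5 CTCF lists, while 11.6% of all sites were in 1 list alone and 56.8% were in 5 or more. Another 18.7% of all sites were in 2 lists. High recurrence was not particular to the domain. Of all 16 lists, 14 held the nearest site outside it on the H19 side, and 16 held each of the nearest 2 on the Ins2 side. A site 27.4 kb beyond the edge on the H19 side was held by 3. These values describe 13 sites of 1 stretch, and no test was made.

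**Figure D5:**
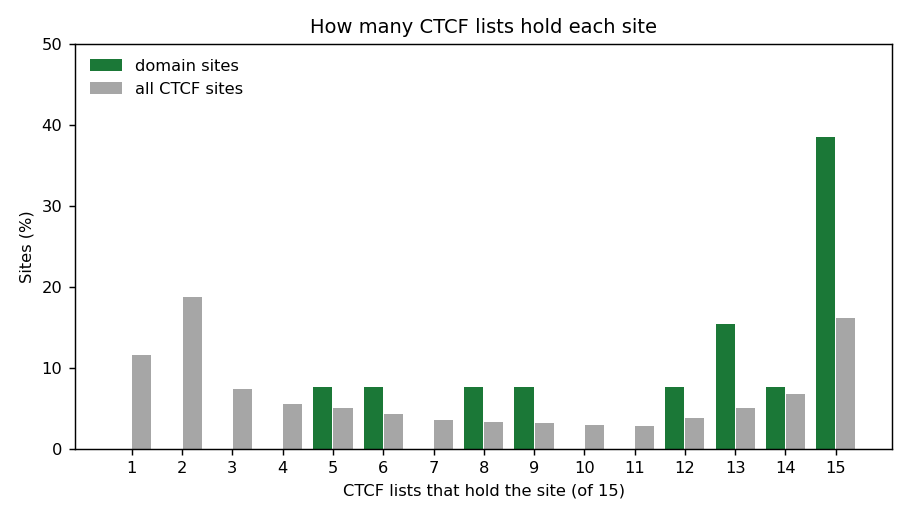
Share of sites (vertical axis, %) by the number of CTCF lists that hold them (horizontal axis, 1 to 15), for the 13 domain sites (green) and all 102399 CTCF sites (grey). At 15 lists the domain stands at 38.5% and all sites at 16.2%, and the domain has no site below 5 lists.

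Around the domain, other genes of distal chromosome 7 were counted by their peaks within 10 kb. The list had 14 genes, and 2 of them, Mrpl23 and Nctc1, lie in the domain. In day 12 cells with Ctcf shRNA, 11 of 25 control peaks near these genes were kept (44.0%, against 58.6% of all control peaks). In these cells 12 of the 14 genes lacked at least 1 of their control peaks. This count has no share over all genes to set beside it. With 41.4% of all control peaks absent, it does not single out these genes. At day 12 Tnnt3, a troponin of fast muscle, and Tssc4 had no peak left with Ctcf shRNA. Kcnq1, a potassium channel gene with its own imprinted cluster, had 2 with Ctcf shRNA and 6 with luciferase shRNA. The kept shares near the 14 genes were 82.4% at day 0 (14 of 17) and 73.3% in Thy1+ cells (22 of 30), and SSEA1- Thy1- cells kept 84.0% (21 of 25) and SSEA1+ cells 90.9% (20 of 22). The whole-list shares were 73.3%, 81.1%, 82.0% and 82.0%. Th, tyrosine hydroxylase, had 1 peak with Ctcf shRNA and 2 with luciferase shRNA at day 12.

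Cells with added Ctcf at day 10 kept 33 of 33 peaks near these flanking genes, against 99.7% over the list. They had 4 more, which was 10.8% of their peaks near these genes and below the 17.3% over the list. With Smarca5 shRNA 35 of 37 were kept (94.6%, against 98.3% over the list) and 1 was added (2.78%, against 0.542% over the list). Ctsd, a lysosomal protease gene, had 0 peaks with Smarca5 shRNA and 1 without, Kcnq1 had 8 and 9, and Syt8 had 5 and 4. Smarca5 knockout ESCs kept 35 of 36 (97.2%, against 97.1% over the list) and had 2 more (5.41%, against 9.81% over the list).

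A list of 22 IGF and insulin genes was counted the same way. It held Igf1, Ins1, receptors, IGF binding proteins, proteases, adaptors and the Igf2bp genes, whose products bind RNA. Near these genes, 25 of 34 control peaks were kept with Ctcf shRNA at day 0 (73.5%) and 61 of 74 in Thy1+ cells (82.4%). SSEA1- Thy1- cells kept 50 of 66 (75.8%), SSEA1+ cells 52 of 61 (85.2%) and day 12 cells 35 of 63 (55.6%). In the same order, the whole lists kept 73.3%, 81.1%, 82.0%, 82.0% and 58.6%.

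Among the receptors at day 12, Igf1r, which binds IGF1 and IGF2, had 5 peaks with Ctcf shRNA and 8 with luciferase shRNA, and Insr, the insulin receptor, had 2 and 4. Igf2r, which removes IGF2 from the cell surface, had 0 peaks with either shRNA at day 12 and at day 0. With Ctcf shRNA and luciferase shRNA, it had 1 and 2 in Thy1+ cells, 0 and 1 in SSEA1- Thy1- cells and 1 and 1 in SSEA1+ cells. In the same order at day 12, Igf2bp1 had 2 and 7, Igf2bp2 2 and 6 and Igf2bp3 2 and 4. Igfals, a carrier of circulating IGF, and Pappa, a protease that cuts IGF binding proteins, each had 0 with Ctcf shRNA and 2 with luciferase shRNA at day 12. Of the 22 genes at day 12, 13 lacked at least 1 control peak. That count, too, has no share over all genes beside it, and 41.4% of all control peaks were absent. With Ctcf shRNA 4 genes had an added peak, 4 peaks in all (10.3% of the peaks there, against 13.4% over the shCtcf list). Among the binding proteins, Igfbp2 had 2 peaks with Ctcf shRNA and 1 with luciferase shRNA. In the same order Igfbp1 had 2 and 4, and Igfbp7 had 2 and 3. Igfbp3, Igfbp5 and Igfbp6 had equal numbers with either, 5, 4 and 3. Igfbp4 had 2 with either, but kept only 1 of its control peaks. Ins1, the other mouse insulin gene, had 0 peaks within 10 kb in every list. With added Ctcf at day 10, 59 of 59 peaks near the 22 genes were kept (99.7% over the list) and 14 were added in 9 genes, which was 19.2% of the peaks there and near the 17.3% over the list. Smarca5 knockout ESCs kept 103 of 109 (94.5%, against 97.1% over the list) and had 10 added in 8 genes (8.85%, against 9.81% over the list). SMARCA5 was listed at 55 of the 109 CTCF peaks of wild-type ESCs (50.5%, against 48.6% over the list).

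The edges of the domain are set by the widening of 50 kb. The nearest site outside on the H19 side lay 2.8 kb beyond the edge and was held by 14 lists. On the Ins2 side the nearest lay 7.2 and 8.0 kb beyond it and were held by 16 lists each. The nearest sites inside lay 7.4 kb from the edge on the H19 side (site 1) and 3.3 kb from it on the Ins2 side (site 13).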

How the data were processed

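CTCF ChIP-seq (15 groups) and SMARCA5 ChIP-seq (1 group) were each deposited as 1 list of intervals per group, and 28 input samples were not used here. The submitters' processing notes name bedtools, Bowtie2, deepTools, FastQC, HOMER, MACS2, Picard, SAMtools and Trim Galore, and the build mm10 (GRCm38). Tool versions, thresholds, depth and how samples were pooled are not stated there. The score that the authors deposited for each peak is 0 in every line, and all intervals are 400 bp wide, so peaks could not be ranked or filtered. Start positions are common to the day 10 lists, to the 8 sorted-cell lists and to the 3 ESC lists, and the day 0 lists have their own, which can raise overlaps within a set.

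Samples were grouped by title. Gene spans were taken from RefSeq (GRCm38.p6). Domain members and gene lists were chosen with earlier results of these data known. Genes to be named were the 3 members, genes within 10 kb of a domain site, and members of the gene lists whose peaks were counted (22 of 22 and 14 of 14 matched). A peak counted as kept if it shared at least 1 bp with one of the other list. Shares have Wilson 95% intervals, for counting error only. The overlap code was tested on simulated intervals. Alternatives were a reciprocal overlap of 50%, identical starts, widenings of 10 and 100 kb (for density added after the data had been seen), other bounds of the imprinting control region, chromosome 7 as background and leaving out each pair. Nothing says which samples came from separate cultures, so the test over pairs measures only the spread between these lists. The software was SciPy 1.17.1, NumPy 2.4.6, matplotlib 3.10.9 and Python 3.11.15.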

Additional observations from a re-analysis of the deposited data

How the results depend on the processing

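The imprinting control region held 2 sites with bounds of 1 to 5 kb and when the peak centre had to lie inside. The domain held 13 sites when peaks up to 200 bp apart were joined, but 5 with a widening of 10 kb and 20 with 100 kb. The kept shares moved by less than their intervals with a reciprocal overlap of 50% and with other widenings. When starts had to be identical, the share was 0% for day 0 cells with Ctcf shRNA against luciferase shRNA, for Thy1+ against day 0 control cells, and for day 12 control cells against wild-type ESCs, all comparisons of lists with different coordinates. The mean change with Ctcf shRNA was -1.20 peaks with a widening of 10 kb and -3.60 with 100 kb, and -3.00 to -1.75 when each pair was left out (without Thy1+, whose labels conflict, -2.50). On chromosome 7 alone, the whole-list shares shifted by at most 3.80 points. The motif was not searched in peaks because no genome sequence was used here. The sign-flip test pairs lists by population. Of samples with the same replicate number, no paired analysis was possible because each group has 1 list for all its samples. The limits are the lack of peak strength, of depth and of replicate lists.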
